A study of Homo sapiens with 9 samples.

Results

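Cells depleted of MOF were compared directly with cells given extra MOF, in the 6 of the series' 9 arrays whose titles name a knockdown (3 arrays) or an overexpression (3 arrays). All arrays carried RNA of the human line HEK293, which derives from embryonic kidney and is long established. In the knockdown group MOF had been depleted with small interfering RNA, and in the overexpression group the cells had been transfected with plasmids encoding human MOF. The other 3 arrays came from cells labelled wild type, which the series text describes as untreated, and they served here as the reference for which side had moved. That text also speaks of a control treated with an unrelated double-stranded RNA, and no sample used here is labelled as such. The promoter and the extent of the plasmid insert, the siRNA sequences and the time after transfection are not given in the sources. The treated groups differ in MOF and also in the kind of nucleic acid delivered, and these differences cannot be told apart. If the wild type cells were untreated as labelled, each comparison with them also holds the transfection. Nothing in the labels says that replicates were separate cultures, and the p-values then cover only the spread among these samples, possibly technical. With 3 arrays per group, an exact permutation test of a single gene cannot go below p = 0.1.

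MOF, the product of KAT8, is a histone acetyltransferase that places an acetyl group on lysine 16 of histone H4, a mark tied to open chromatin. It works inside the MSL complex, named for the fly proteins that raise transcription from the male X chromosome, and inside the NSL complex, which binds promoters of widely expressed genes. The direct comparison asks which transcripts separate cells at the low end of MOF expression from cells at the high end.

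The 3 arrays labelled replicate 1, 1 in each group, stood apart in the added control transcripts. The poly-A controls were 1.98-fold brighter in replicates 2 and 3, with no overlap (478 to 551 in replicate 1 against 985 to 1060). The model held a term for replicate 1, which had been set as part of the comparison. All arrays were scaled to one trimmed mean signal, which hides any change in the amount of RNA a cell holds. Of 7 genes typical of the line, 6 were bright enough to test. The summed signal of all 7 ranged from 90027 to 106805 in overexpression and from 95369 to 109058 in knockdown arrays. VIM made up most of that sum and LHX1 was the lowest. Of the 6, KRT8, KRT18 and PAX2 were called lower in knockdown and VIM higher, with a median of -0.28 over the 6. Of 17 markers of blood, endothelium, fibroblasts, liver and muscle, 4 could be tested. The summed fibroblast markers were lower in knockdown (1824 to 2304) than in overexpression (2579 to 3701) or wild type (2849 to 3145), and both tested members, COL1A1 and COL3A1, passed as lower. The summed endothelial markers, of which 1 of 4 was tested and not called, read 289 to 318 in knockdown, 365 to 500 in overexpression and 370 to 545 in wild type. The part of these lists in the results was not tested, and in bulk RNA fewer cells of a type and less RNA per cell cannot be told apart. The call for COL1A1 ended without the replicate 1 term or without knockdown replicate 1, and that for COL3A1 without overexpression replicate 2.

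KAT8 itself was measured by 2 probe sets, and its signal followed the labels. The brighter set read 432, 705.8 and 517.1 in the knockdown arrays and 4594.3, 4727.2 and 4763 in the overexpression arrays. Wild type arrays read 2909.5, 3796.8 and 3248.7, so the 3 groups did not overlap and wild type lay closer to overexpression. Knockdown kept 11.7% of the overexpression signal (552 ± 140 against 4695 ± 88.9, SD, n = 3), a log2 fold change of -3.12 with a standard error (SE) of 0.13 and an adjusted p of 5.31e-08. Throughout, fold changes are knockdown minus overexpression on the log2(signal + 1) scale unless another pair is named, so a negative value means higher in overexpression. Adjusted p-values come from limma with Benjamini-Hochberg adjustment over all probe sets tested, with a threshold of 0.05. Of the gap, -2.61 lay between knockdown and wild type, and overexpression stood 0.51 above wild type (adjusted p = 0.0478). The dimmer probe set of KAT8 gave -1.69 (SE 0.25, adjusted p = 0.000422) for knockdown against overexpression. For that set the overexpression arrays, at 656.6, 428.3 and 380.8, overlapped wild type at 428.3, 498.9 and 400.7.

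Among the 12 tested genes of the MOF complexes, KAT8 was the 1 called lower in knockdown and MSL1 the 1 called higher. MSL1 is the scaffold of the MSL complex. Its signal was 11657.9, 9962.2 and 9924.4 in knockdown against 8011.6, 6348.6 and 6629 in overexpression. Wild type arrays, at 7389.9, 6836.7 and 6698.3, lay among the overexpression values, and knockdown lay above both groups (0.59, SE 0.06, adjusted p = 3.84e-05). The other tested probe set of MSL1 had the opposite sign and did not pass. Of 12 other histone acetyltransferases, 2 passed, CLOCK higher in knockdown (0.43) and KAT6B lower (-0.27, adjusted p = 0.0431). In each of these lists 16.7% were called, against 33.0% of all genes tested. The KAT6B call ended without the replicate 1 term, when low signals were kept, and when single arrays were left out, in 7 of the 9 such fits.

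Of 27307 probe sets tested, 7425 differed between knockdown and overexpression, which is 27.2%. Higher in knockdown were 3342 probe sets (12.2%), and 4083 were lower (15.0%). Taken as 1 probe set per gene, 12036 genes were tested, of which 1554 were higher in knockdown (12.9%) and 2414 higher in overexpression (20.1%). These shares are the background against which each gene group is given, beside a median difference of -0.05 over all genes. Most differences were small, with a median absolute log2 fold change of 0.45 among called genes. At least 2-fold differences were seen in 63 genes higher in knockdown and 244 higher in overexpression. The arrays of the groups did not overlap at all in 9193 probe sets (33.7%). Without the term for replicate 1 the count of calls was 3963, and with replicates 2 and 3 alone it was 4909. Of those 4909, 4665 pointed the same way in replicate 1 (95.0%), as did 71.8% of all probe sets.

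**Figure D1:**
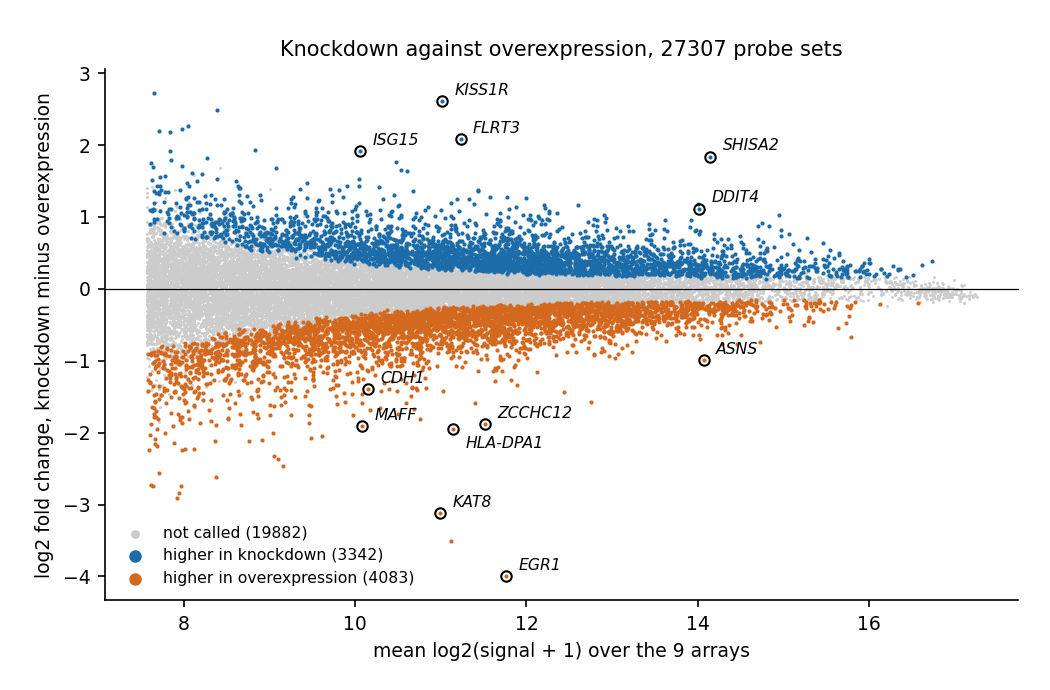
Log2 fold change of knockdown minus overexpression against mean log2(signal + 1) over the 9 arrays for the 27307 probe sets tested, with calls at an adjusted p under 0.05 in colour and 12 genes circled. EGR1 and KAT8 lie lowest among the circled genes at -4.00 and -3.12, and KISS1R highest at 2.61.

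The excess of large differences toward overexpression lay among the dimmer probe sets tested. Split into 4 bins of equal size by mean signal, the dimmest bin held 252 probe sets called at least 2-fold higher in overexpression and 101 in knockdown. The brightest bin held 3 and 13. Among calls of any size, the brightest bin held 20.8% of its probe sets higher in knockdown and 19.2% higher in overexpression, and the dimmest 3.96% and 7.38%. Of probe sets with 1 gene symbol, 15.6% were called higher in overexpression and 12.4% higher in knockdown. Of those with no symbol or several, 11.2% and 11.1% were.

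Set against wild type, the difference between the treated groups came mostly with a change in the knockdown cells. Knockdown against wild type called 7706 probe sets (28.2%) and overexpression against wild type 1109 (4.06%). These comparisons share the wild type arrays. Taken as 1 probe set per gene, 1556 of 12036 genes were higher and 2463 lower in knockdown than in wild type. In overexpression 330 genes were higher than in wild type and 313 lower. These counts are the background for gene lists set against wild type. Of the 7425 probe sets called between the treated groups, 4627 (62.3%) passed against wild type in knockdown and not in overexpression. The reverse held for 363 (4.89%). Another 77 (1.04%) passed on both sides in opposite directions, 124 (1.67%) passed on both sides in the same direction, and 2234 (30.1%) passed on neither. Since the treated groups were tested against each other, the difference between a gene's change on either side is itself what was called. The wild type mean lay between the treated means and nearer overexpression for 46.0% of the called probe sets, between them and nearer knockdown for 17.6%, and outside both for 36.4%. Over all tested probe sets these shares were 24.1%, 14.1% and 61.8%. The count for overexpression against wild type was 130 without the replicate 1 term and fell between 335 and 1257 when 1 array was left out, so the class sizes move with the model. Without the term 52 probe sets were called with a change in overexpression alone and 13 with opposite changes.

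**Figure D2:**
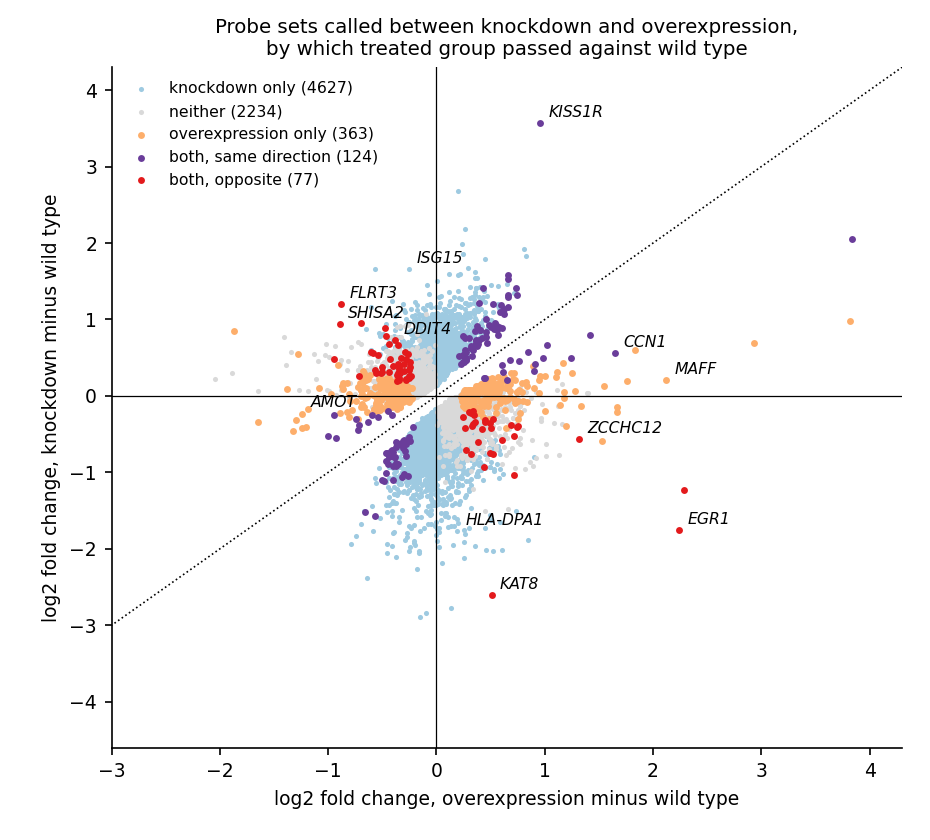
Each point is 1 of the 7425 probe sets called between knockdown and overexpression, placed by its log2 fold change against wild type in overexpression (horizontal) and in knockdown (vertical), and coloured by which comparison with wild type passed. The wild type arrays enter both axes, the dotted line marks equal change, and the 4627 probe sets that passed in knockdown alone spread along the vertical axis.

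EGR1, the zinc finger transcription factor switched on within minutes of growth factor signalling, showed the largest difference of the named genes. Overexpression arrays read 17289.5, 13040.2 and 13908.5, wild type arrays 2902, 3105.6 and 3299.4, and knockdown arrays 946.4, 725.9 and 1122.1. The 3 groups did not overlap and stood in the order of KAT8. Overexpression exceeded knockdown 15.9-fold (14746 ± 2245 against 931 ± 199, SD, n = 3), a log2 fold change of -4.00 (SE 0.14, adjusted p = 1.71e-08). Against wild type, EGR1 rose by 2.24 in overexpression and fell by 1.76 in knockdown. The other probe sets of EGR1 gave -3.51 and -2.12. For knockdown against wild type the first of these passed (-1.23) and the second, dimmer set did not (-0.59, adjusted p = 0.0514).

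FLRT3, a membrane protein with leucine-rich repeats that binds the axon guidance receptors UNC5 and latrophilin, ran the other way. Knockdown arrays read 5132.6, 5155.3 and 5080 and overexpression arrays 1118.6, 1214.6 and 1307.1, with wild type between at 2015.8, 2236.6 and 2465.7. No array of 1 group fell within another. The difference was 2.08 (SE 0.09, adjusted p = 5.31e-08), with knockdown 1.20 above wild type and overexpression 0.88 below it, and the other probe set gave 1.65.

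Further genes moved in opposite directions on both sides of wild type. SHISA2, an endoplasmic reticulum protein that restrains WNT and FGF receptor maturation, read 29952.3, 35331.8 and 38729.5 in knockdown and 9923.1, 8904.2 and 10131.5 in overexpression. Wild type arrays lay between, at 15738, 18680.9 and 19580.4 (1.84, SE 0.08, adjusted p = 8.07e-08). ZCCHC12, a zinc finger coactivator of BMP signalling, was highest in overexpression, at 6306.8, 5967.2 and 6141.3. Its wild type values of 2451.3, 2620.7 and 2330.4 were nearer to knockdown, at 2082.8, 1548.5 and 1427.8, and no groups overlapped (-1.88, SE 0.11, adjusted p = 7.88e-07). AMIGO2, a neuronal adhesion protein, also passed on both sides, narrowly in overexpression against wild type (0.72, adjusted p = 0.0358). Its knockdown arrays read 437.9, 616 and 545.8 and its overexpression arrays 1638.7, 1995 and 1713.8 (-1.75, SE 0.17), with wild type between.

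**Figure D3:**
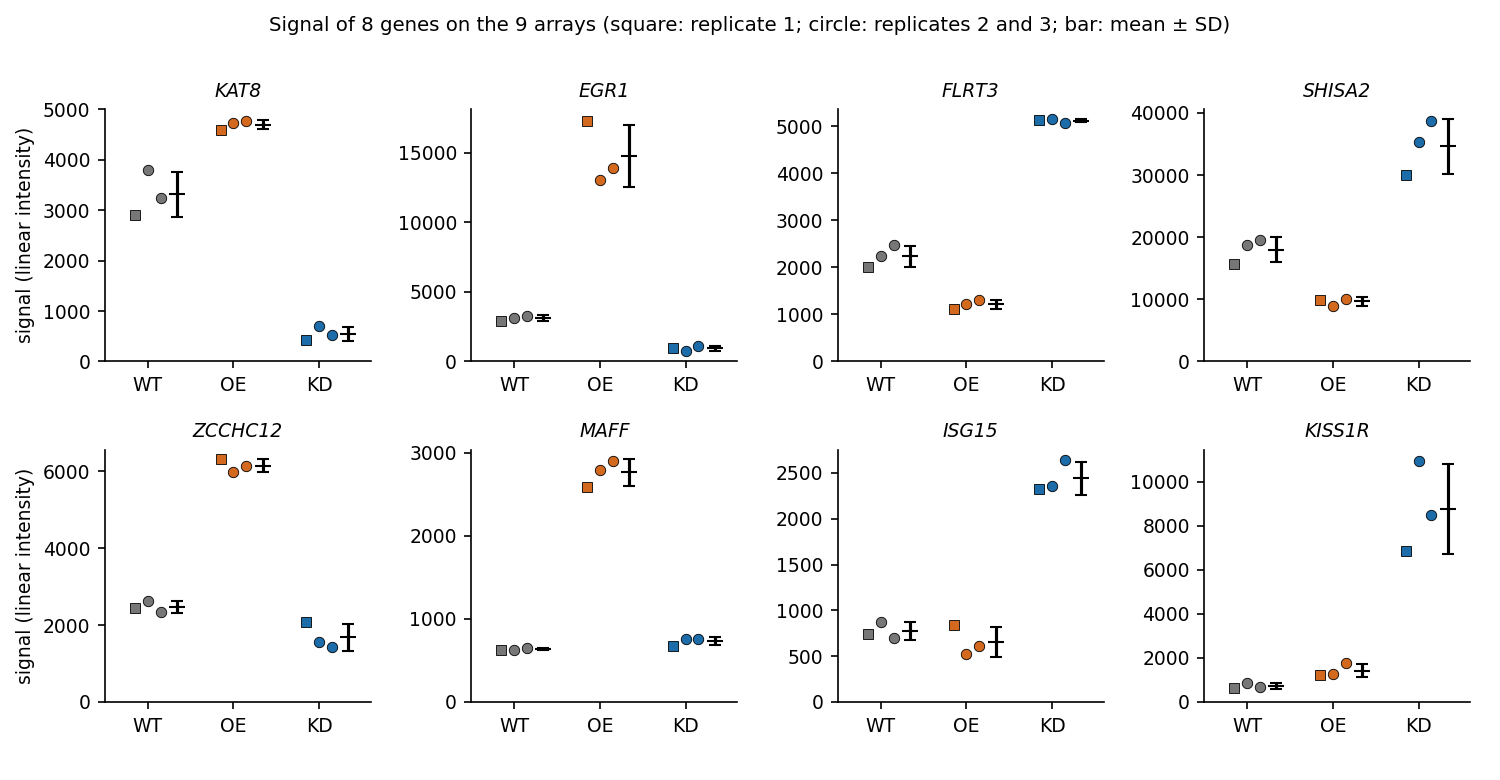
Signal on the authors' linear intensity scale for 8 genes in wild type (WT), overexpression (OE) and knockdown (KD), with squares for replicate 1, circles for replicates 2 and 3, and a bar for mean ± SD over 3 arrays. In the upper row wild type lies between the treated groups, MAFF is high in overexpression, with knockdown near wild type, and ISG15 is high in knockdown, with overexpression overlapping wild type.

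Several of the largest differences were losses that passed against wild type in knockdown alone. HLA-DPA1, the alpha chain of an MHC class II molecule, read 971.4, 794.3 and 1126.5 in knockdown and 4056.4, 3502.3 and 3560.3 in overexpression (-1.95, SE 0.12, adjusted p = 1.31e-06). Wild type, at 3464.3, 3392.8 and 2913.2, lay just below overexpression and above every knockdown array. GLT8D2, a glycosyltransferase family member, read 887.4, 683 and 686.6 in knockdown and 2957.1, 2000.6 and 3051.2 in overexpression (-1.81, SE 0.15). C1orf54 read 729.3, 815.8 and 774.8 in knockdown and 2721.1, 2437.4 and 2223.2 in overexpression (-1.67, SE 0.11). For GLT8D2 and C1orf54 wild type overlapped overexpression and lay above all knockdown arrays. SPINK2, a serine protease inhibitor (-1.59), and the methyltransferase TMT1B (-1.68) had the same pattern. The antisense RNA URB1-AS1 was also lowest in knockdown (-1.73), with overexpression just below wild type, and its probe set is of a kind that can bind several transcripts.

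SELENOP, the secreted protein that carries selenium between tissues, read 981.3, 1184.6 and 1520.9 in knockdown and 2935.1, 4146.5 and 3989 in overexpression (-1.59, SE 0.10, adjusted p = 1.24e-06). In wild type it read 3530.2, 5056 and 4958.7, overlapping overexpression. The groups of the direct comparison did not overlap.

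Gains in knockdown alone included PRTG, SYNGR3, NAPEPLD and ROBO2. PRTG, protogenin, an immunoglobulin-domain receptor of early neural development, read 2109.3, 2129.2 and 2086.5 in knockdown. Its overexpression arrays, at 741.1, 726.6 and 714, stood beside wild type at 740.7, 754.6 and 829.2 (1.53, SE 0.12, adjusted p = 4.6e-06). SYNGR3, a synaptic vesicle protein, read 7425.1, 7595.4 and 7234 in knockdown and 3509.2, 2545.3 and 3256.4 in overexpression (1.27, SE 0.10). Both genes had knockdown arrays that varied little and lay above all others. NAPEPLD, which makes N-acylethanolamine lipids, differed by 1.42 (SE 0.15), and PSMB10, a subunit of the immunoproteasome, by 1.30 (SE 0.15). ZNF503-AS2, an antisense RNA, differed by 1.36 (SE 0.16).

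**Figure D4:**
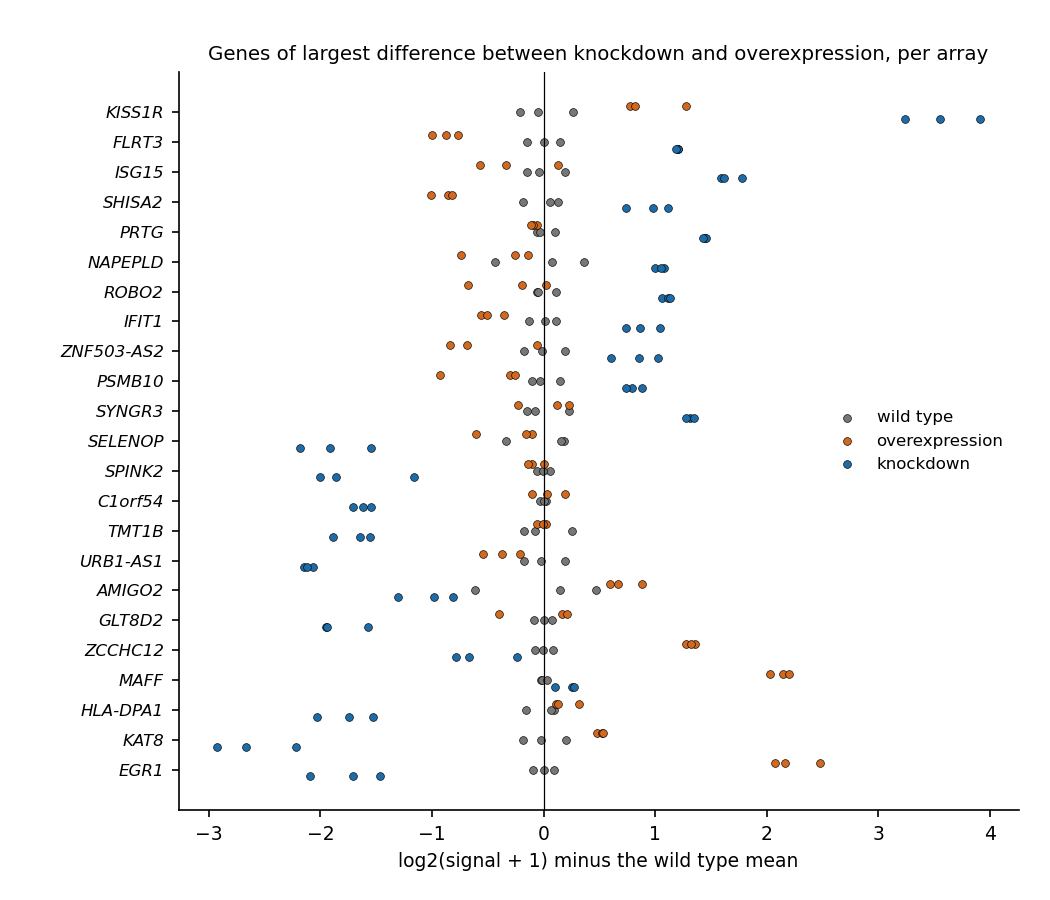
Log2(signal + 1) minus the wild type mean on each of the 9 arrays for 23 genes with the largest differences in each direction among called genes without overlap, leaving out those dimmer than the 75th percentile of signal in both treated groups, such as HLA-DMA and IFIT3. MIR10A (1.65) met the same conditions and is not drawn. For SELENOP, SPINK2, C1orf54, TMT1B, URB1-AS1, GLT8D2 and HLA-DPA1 the knockdown points lie apart, with overexpression near wild type, and for MAFF the overexpression points lie apart.

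KISS1R, the receptor for kisspeptin, passed against wild type in the same direction on both sides. Knockdown arrays read 6844.3, 10927 and 8496.2, overexpression arrays 1239.7, 1280.9 and 1751.4, and wild type arrays 624.4, 869.9 and 698.4. The groups did not overlap, and overexpression lay between wild type and knockdown (2.61, SE 0.14, adjusted p = 3.62e-07). FAM174C had the same order, with 3498.4, 4155.3 and 4176.7 in knockdown and 2144.3, 1823.4 and 2013.3 in overexpression (0.98, SE 0.11). NUDT7, a peroxisomal coenzyme A hydrolase, was lower than wild type on both sides and lowest in knockdown, at 850.3, 860 and 662 against 1706.6, 1469.8 and 1541.4 in overexpression. For CCN1 and ATF3 both treated groups were above wild type and overexpression was the higher (-1.09 and -0.75).

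A smaller set changed in overexpression alone. MAFF, a small partner of the NFE2 family of transcription factors, read 2587.5, 2793.3 and 2899.3 in overexpression and 678.8, 756.1 and 762.6 in knockdown. Wild type arrays, at 623.2, 626.7 and 646.5, all lay below knockdown, though knockdown did not pass against wild type (-1.91, SE 0.11, adjusted p = 1.14e-06 for knockdown against overexpression). AMOT, angiomotin, which holds YAP out of the nucleus, was lowest in overexpression, at 1129.6, 1539.8 and 1330.4 against 2632.2, 2776.8 and 2586.1 in knockdown (1.01, SE 0.12). PNPLA3, a lipase of lipid droplets, had the same pattern (1.00, SE 0.16). The probe set annotated to the keratin-associated protein gene KRTAP19-1 read 2717.6, 2906.5 and 2489.2 in overexpression and 5367.1, 5410.5 and 5557.5 in knockdown (1.01, SE 0.07). Among genes that passed on neither side, and leaving out those dimmer than the 75th percentile of signal in both treated groups, the largest differences were those of MT1HL1 (-1.39, from a probe set that can bind several metallothionein transcripts), ZNF579 (-0.88) and EDNRB (-0.84). The ZNF579 call ended without the replicate 1 term and without overexpression or knockdown replicate 2.

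Immediate early genes, which growth signals turn on through the serum response factor SRF and its cofactors before any protein is made, were called in both directions. Of 24 tested, 11 were higher in overexpression, 2 were higher in knockdown and 11 did not pass, with a median of -0.30. Beside EGR1 and MAFF, the calls included GEM, a small GTPase (-1.25), CCN1, a matricellular protein (-1.09), and ATF3, a stress transcription factor (-0.75). FOS, at low signal, read 1146.9, 907.7 and 1429.5 in overexpression against 211.4, 105.7 and 178.5 in knockdown (-2.84, SE 0.58, adjusted p = 0.00317). EGR3 read 361.3, 766.4 and 405 in overexpression against 197.8, 171.1 and 157.8 (-1.46). For both genes all overexpression arrays lay above the other groups. Against the list stood JUN, at 26442, 27517.9 and 25707.2 in knockdown and 20574.3, 21831.4 and 20417.6 in overexpression (0.34, adjusted p = 0.000928), and KLF6 (0.50). Against wild type 14 members were higher and 1 lower in overexpression, and 11 were higher and 2 lower in knockdown. Over all genes tested, 5.34% were called against wild type in overexpression and 33.4% in knockdown. CCN1, ATF3, IER2 and DUSP1 were above wild type in both treated groups, with overexpression the higher. In the direct comparison the calls of IER2 and DUSP1 ended with replicates 2 and 3 alone. That of DUSP1 also ended without the replicate 1 term. The 11 members higher in overexpression than in knockdown became 9 without the term and 8 with replicates 2 and 3 alone. MYC was lower than wild type in both treated groups, more so in knockdown (-0.38 between them).

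The EGR1 promoter is shown because its CArG boxes, the DNA element bound by SRF, are the textbook route of induction of this gene. The stretch is chr5:138465354-138465425, plus strand, of GRCh38.p14, from RefSeq, and begins 125 bases before the annotated start. Capitals mark 2 matches to the CArG box, searched on both strands.
EGR1: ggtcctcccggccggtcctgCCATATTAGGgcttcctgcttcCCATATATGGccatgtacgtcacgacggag
The matches begin 105 and 83 bases before the start. A CArG box lay within the 250 bases before the start in 1.14% of 27305 promoters. Of the 11 immediate early genes higher in overexpression, 7 had a promoter entry, and EGR1 and SRF held a match. A match of letters does not show binding, and its absence from this window says nothing of the factor.

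Genes that ERK signalling induces include its own brakes. Of 15 tested, 4 were higher in overexpression and 1 in knockdown, with a median of -0.21. Set beside wild type, 6 members were higher in overexpression (median 0.61) and 6 in knockdown (median 0.38). By limma 0 were called lower than wild type in either group, with 1 lower in overexpression and 0 in knockdown at an unadjusted p under 0.05. ETV5, an ETS factor downstream of FGF and ERK, read 733.8, 831.2 and 1269.3 in overexpression and 186.6, 247.1 and 160 in knockdown, with wild type at 81.8, 206.1 and 101.4 (-2.23, SE 0.33, adjusted p = 0.000357). DUSP6, the phosphatase that removes phosphate from ERK, read 704, 616.5 and 398.5 in overexpression and 239.2, 247.2 and 223.4 in knockdown (-1.23, adjusted p = 0.00594). In both genes overexpression lay above both other groups. The DUSP6 call ended with replicates 2 and 3 alone (adjusted p = 0.0699), and the count of 4 was 1 with replicates 2 and 3 alone and 2 without overexpression replicate 1. EPHA4 was the call against the list (0.55).

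Several genes of antigen presentation were lower in knockdown. Of 14 tested, 8 were lower and 1 higher, with a median of -0.39, and the calls were led by MHC class II genes, whose products show peptides to CD4 T cells. HLA-DRB1 read 175.7, 171.3 and 239.3 in knockdown, 1061.5, 1037.9 and 910.8 in overexpression and 992.7, 676.8 and 882.1 in wild type (-2.37, SE 0.20, adjusted p = 1.02e-05). HLA-DPB1 read 129.5, 256.1 and 254.8 in knockdown against 730.9, 614.7 and 804 in overexpression (-1.80, SE 0.23). HLA-DMA, which loads peptides onto class II molecules, read 226.8, 74.1 and 84.9 against 658.1, 727.4 and 699 (-2.61, SE 0.32). Knockdown lay below all wild type arrays in these genes, and overexpression did not pass against wild type. HLA genes have near copies, and the HLA-DRB1 probe set is of a kind that can bind several of them. HLA-E, a class I gene, was higher in knockdown (0.28), a call that ended without the replicate 1 term (adjusted p = 0.083).

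Interferon-stimulated genes, which cells raise in response to interferon or to foreign double-stranded RNA, included some of the largest gains in knockdown. Of 21 tested, 7 were higher in knockdown (ISG15, IFIT1, IFIT3, IFI6, OAS3, IRF9 and HERC5), with a median over the list of 0.09. No member was called lower in this comparison. Against wild type 6 members were higher and 3 lower in knockdown, and 1 was higher and 2 lower in overexpression. ISG15, a ubiquitin-like modifier, read 2319.8, 2353.1 and 2645.2 in knockdown, 842.1, 518.8 and 607.3 in overexpression and 744.8, 878.4 and 693.3 in wild type (1.92, SE 0.17, adjusted p = 1.15e-05). IFIT3 read 1070.9, 1199.6 and 1046.1 in knockdown and 120.9, 274.1 and 226.6 in overexpression (2.49, SE 0.27). IFIT1, which binds foreign RNA, read 3070.2, 2710.1 and 2477.7 in knockdown and 1007.8, 1166 and 1043.1 in overexpression, with wild type between (1.36, SE 0.11). In these 3 genes knockdown lay above every other array. IFI6 differed by 0.85, IRF9 by 0.80, OAS3 by 1.51 and HERC5 by 0.49. The knockdown cells received siRNA and no sample with a control siRNA was used here, so a response to the RNA and to the loss of MOF cannot be told apart. The machinery of RNA interference, for comparison, had 5 of 15 tested genes higher in knockdown and 5 lower. DICER1, which cuts double-stranded RNA, was higher (0.63, adjusted p = 0.000215), and DROSHA, which cuts microRNA precursors in the nucleus, was lower (-0.49). Without the replicate 1 term 3 of these genes were called higher and 2 lower, and with replicates 2 and 3 alone 3 were called lower.

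Promoters of 4 of these genes are shown because all carry the core of the interferon-stimulated response element, GAAANNGAA, which is bound by the complex that contains IRF9. Capitals mark its matches on either strand, and those that begin with TTC lie on the other strand. The sequences are from RefSeq, GRCh38.p14, 5′ to 3′ along each gene. They lie at chr1:1013364-1013424 (plus strand, ISG15), chr10:89392488-89392549 (plus, IFIT1), chr10:89327822-89327904 (plus, IFIT3) and chr1:27672257-27672368 (minus, IFI6).
ISG15: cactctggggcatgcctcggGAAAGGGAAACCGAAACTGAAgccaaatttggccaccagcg
IFIT1: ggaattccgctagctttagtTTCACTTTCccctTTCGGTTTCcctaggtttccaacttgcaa
IFIT3: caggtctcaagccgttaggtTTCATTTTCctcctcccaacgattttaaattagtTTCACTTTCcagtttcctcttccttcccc
IFI6: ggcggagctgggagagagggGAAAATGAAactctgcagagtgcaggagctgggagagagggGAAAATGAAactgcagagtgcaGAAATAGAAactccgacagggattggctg
ISG15 holds 3 overlapping matches that begin 113, 107 and 101 bases before the start, IFIT1 2, IFIT3 2 and IFI6 3. The core was found in 6 of the 7 promoters of the interferon genes higher in knockdown (not in that of IRF9), and in 7.06% of 27305 promoters. Among the 9889 tested genes with a promoter entry the share was 5.01%. The list was made of interferon-stimulated genes and its members not called were not counted. The share therefore cannot tell which members rose. This motif was searched with the calls known.

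Targets of p53, the transcription factor that answers DNA damage, were mostly higher in knockdown. Of 20 tested, 13 were higher and 2 lower, with a median of 0.30. SESN1, a sestrin that limits mTORC1, read 5287.8, 4940.1 and 4821.7 in knockdown against 2668.7, 2341.6 and 2829.1 in overexpression (0.94, SE 0.09, adjusted p = 1.96e-05). FAS, a death receptor, read 2701.4, 2609.7 and 2548.9 against 1639.1, 1194 and 1431.4 (0.89, SE 0.12). TP53INP1, a p53 cofactor, differed by 0.71. For SESN1 and FAS wild type lay at or near overexpression, below all knockdown arrays. Against the list stood PMAIP1, which encodes the death factor NOXA (-0.44), and CDKN1A, the cell cycle inhibitor p21 (-0.20). CDKN1A read higher in both treated groups than in wild type, and its call in the direct comparison ended in 10 of 17 other settings, among them those without the replicate 1 term (adjusted p up to 0.182). Without that term 8 p53 targets were called higher.

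The DNA damage and repair lists held calls in both directions. Called were 29.2% of the signalling, 29.2% of the double-strand break and 25.8% of the excision, mismatch and crosslink genes. Over all genes tested 33.0% were called, so none of these lists was called more often than genes at large. Of 24 signalling genes, 5 were higher in knockdown and 2 lower (CHEK2 and TIPARP). Without the replicate 1 term 3 were higher and 1 lower, and 1 was lower without wild type replicate 1 or 3, overexpression replicate 3, or knockdown replicate 2 or 3, as with only the 2 groups or no filter on low signal. ATR, the kinase that senses stalled forks, read 4618.7, 4910.8 and 4540.9 in knockdown against 3091.2, 3785.1 and 3437.5 in overexpression (0.45, adjusted p = 0.00164), with wild type overlapping knockdown. CHEK2, a checkpoint kinase, read 4215.6, 3936.1 and 4098.1 against 5672.7, 5740.5 and 4998.2 (-0.42), and WEE1, which holds CDK1 inactive, was higher in knockdown (0.44). NBN passed as higher (0.32), a call that ended without the replicate 1 term. Of 24 genes of double-strand break repair, 4 were higher and 3 lower. EME2, a partner of the MUS81 nuclease, read 2742.9, 2586.7 and 2501.6 in knockdown against 1292, 1220.8 and 1340.9 in overexpression and 904.6, 1021.2 and 988.8 in wild type (1.02, SE 0.11, adjusted p = 3.42e-05). Knockdown lay above both other groups, and overexpression above wild type without passing. PALB2, which brings BRCA2 to breaks, was lower in knockdown (-0.41), and the 3 lower members became 1 without the replicate 1 term. Of 31 genes of excision, mismatch and crosslink repair, 3 were higher and 5 lower, among them ERCC8, which acts at stalled polymerases (-0.68), and DDB2, a damage sensor that p53 also induces (0.54). The count of 5 lower was 2 without the replicate 1 term and 3 without knockdown replicate 3.

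The mitotic genes that passed were all higher in knockdown, by small amounts. Of 32 genes of G2 and mitosis, 17 were called higher and none lower, with a median of 0.23. CDC20, which activates the anaphase-promoting complex, read 21468.3, 19053.2 and 19184.6 in knockdown against 16009.8, 12543.2 and 13677.3 in overexpression (0.50, SE 0.06, adjusted p = 8.96e-05). BUB1, a spindle checkpoint kinase, read 13006.9, 13862.7 and 13791.4 against 8866.9, 10469 and 9662.5 (0.49). Neither pair of groups overlapped, and in both genes overexpression overlapped wild type. Against wild type 19 of the 32 were higher in knockdown. In overexpression limma called 0 of them, with 4 higher and 5 lower at an unadjusted p under 0.05. The count of 17 was 8 without the replicate 1 term and 11 without overexpression replicate 3. Genes of G1, S phase and replication were split, with 9 of 35 higher and 7 lower. The D-type cyclins went apart, CCND1 (0.94) and CCND2 (0.59) being higher in knockdown and CCND3 lower (-0.62). Of the 9, 3 were called without the replicate 1 term, 5 when overexpression replicate 2 was left out, 4 when replicate 3 of that group was, and 5 when knockdown replicate 1 was. The 7 became 4 without the term or without knockdown replicate 3.

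HOX genes, which set position along the body axis and are held active by MLL complexes, were higher in knockdown wherever they passed. Of 25 tested, 15 were higher and none lower, with a median of 0.44. The count of 15 was 11 without the replicate 1 term and 12 without knockdown replicate 3. HOXB5 read 5927.8, 6342.7 and 6253.2 in knockdown against 3112, 2960.6 and 3017.3 in overexpression (1.03, SE 0.09, adjusted p = 1.12e-05), from a probe set that can bind several transcripts. HOXB6 read 17404.2, 13669.7 and 15866.7 against 10785.4, 8006.7 and 8989.5 (0.76, SE 0.08). HOXC6 read 27244.4, 36552.8 and 34233 against 17052, 24599.5 and 20853 (0.65, SE 0.07). In these genes knockdown lay above both other groups. The called members came from the HOXB, HOXC and HOXD clusters, from 0.34 for HOXB2 to the value of HOXB5. Their TALE cofactors, homeodomain proteins that bind DNA with HOX proteins, gave 6 of 12 higher and none lower, with a median of 0.37, led by MEIS2 (0.60, adjusted p = 2.53e-05), MEIS1 (0.63) and PBX3 (0.66). Genes of Polycomb and Trithorax complexes, which silence or maintain HOX expression, had 2 of 27 higher and 4 lower, among them RING1, a ubiquitin ligase of Polycomb (-0.49), and JARID2, a cofactor of its methyltransferase complex (0.53). The calls made up 22.2% of the Polycomb and Trithorax list, against 33.0% of all genes tested. Without the replicate 1 term 1 was higher and 2 were lower.

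The list that holds FLRT3, with the ROBO receptors and other axon guidance genes, was called in both directions. Of 24 tested, 8 were higher in knockdown, FLRT3 among them, 4 were lower and 12 did not pass, with a median of 0.21. ROBO2, a receptor for SLIT, read 1441.2, 1500.7 and 1513.2 in knockdown and 699.3, 430.6 and 601.9 in overexpression (1.39, SE 0.16, adjusted p = 8.67e-05). SEMA3C, a secreted semaphorin, read 4051.6, 4253.4 and 4098.5 against 1529.9, 1934.3 and 1750.6 (1.26, SE 0.12). The groups did not overlap in either gene, and SEMA3C also passed as lower than wild type in overexpression. ROBO1 (0.61) and the ligand SLIT2 (0.53) were higher too. The 4 lower members (FLRT1, ROBO3, ADGRL1 and NEO1) became 1 without the replicate 1 term. Leaving out an array left 0 (knockdown replicate 1), 1 (overexpression replicate 1) or 2 of them (overexpression replicate 2 or 3, knockdown replicate 3). Of 15 Eph receptors and ephrins, 6 were higher and 1 lower, with a median of 0.46, including the ephrin EFNA1 (0.68) and the receptors EPHA4 (0.55) and EPHA7 (0.47).

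Epithelial adhesion and keratin genes, listed with mesenchymal factors, were called in both directions, 5 of 18 each way. Lower in knockdown were CDH1, EPCAM, KRT8, KRT18 and the mesenchymal factor SNAI2 (-0.70). Higher were CDH2, VIM, TWIST1, ZEB2 and the desmosomal gene PKP2 (0.46), whose other tested probe set had the opposite sign. CDH1, E-cadherin, read 512.7, 555.7 and 556.7 in knockdown against 1257.5, 1433.7 and 1612.1 in overexpression and 1836.1, 1720.5 and 2120.8 in wild type (-1.40, SE 0.13, adjusted p = 1.48e-05). EPCAM, an epithelial adhesion protein, read 202.7, 183.6 and 284.3 against 791.4, 1057.2 and 823 (-2.00, SE 0.21). The intermediate filament gene KRT8 read 609.1, 720.5 and 597.5 against 1371.7, 1351.7 and 1657.7 (-1.18, SE 0.14), with its partner KRT18 at -0.45. Each of these had knockdown below every other array of the direct comparison. CDH2, N-cadherin, was higher in knockdown (0.44), as was VIM, vimentin (0.18, adjusted p = 0.042). The calls of both ended without the replicate 1 term, and that of VIM also with the replicate block (adjusted p = 0.0543) and without wild type replicate 2, overexpression replicate 2 or 3, or knockdown replicate 1 or 2. Without the replicate 1 term PKP2 alone of the 5 higher members was called. They became 2 without overexpression replicate 3 and 3 without knockdown replicate 1 or 2. PAX2, a transcription factor of kidney development, was lower in knockdown, at 184.3, 190.7 and 210.7 against 629.5, 558.2 and 667 (-1.66, SE 0.21).

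Genes of lipid synthesis were among those lower in overexpression than in the other groups. Of 21 genes of cholesterol and fatty acid synthesis, 9 were higher in knockdown than in overexpression and 1 lower, with a median of 0.23. SQLE, the oxygenase that commits squalene to sterols, read 14609, 12140.7 and 13578.1 in overexpression, 23425.8, 21120.1 and 23790.5 in knockdown and 23818.3, 22095.4 and 19106.8 in wild type (0.76, SE 0.07, adjusted p = 2.58e-05). SCD, the stearoyl-CoA desaturase, read 20378.9, 15666 and 19860.4 in overexpression against 34694.3, 32475.5 and 34605.1 in knockdown (0.87, SE 0.09). MSMO1, a later sterol enzyme, read 13259.2, 13170.1 and 14318.7 against 23847.6, 20970.3 and 21318.9 (0.70, SE 0.07). In these genes overexpression lay below both other groups. Against wild type 9 members were lower in overexpression and 0 higher (0 also at an unadjusted p under 0.05 in limma), while in knockdown 7 were lower and 3 higher. SREBF1, the transcription factor of the pathway, differed on the other side, being higher in knockdown than in wild type (1.03), while overexpression against wild type gave 0.06 (adjusted p = 0.905). PMVK, phosphomevalonate kinase, was the member lower in knockdown (-0.52). Without the replicate 1 term 6 of the 9 were called.

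Genes of the unfolded protein response and of ATF4, which drives amino acid supply under stress, were called in both directions. Of 29 tested, 10 were lower in knockdown, 3 were higher and 16 did not pass, with a median of -0.16. ASNS, asparagine synthetase, read 12731.9, 10275 and 11886.2 in knockdown, 24176.9, 22886.5 and 22054.7 in overexpression and 19004.4, 19133.3 and 18850.9 in wild type (-0.99, SE 0.07, adjusted p = 2.49e-06). SLC7A11, the cystine transporter, read 1186.9, 1165.2 and 1278.8 against 2132.9, 2188 and 2351.8 (-0.88, SE 0.10). DDIT4, an inhibitor of mTORC1, ran against the list, at 26470.2, 25071.6 and 24864.3 in knockdown against 12068.1, 11510.6 and 11638.5 (1.12, SE 0.06, adjusted p = 2.68e-07), with wild type between. ASNS and DDIT4 thus passed on both sides of wild type, in opposite orders. For ASNS the call in overexpression against wild type was narrow (0.28, adjusted p = 0.0401). SLC7A5, the leucine transporter, was also higher in knockdown (0.51). Among 20 amino acid transporters 5 were lower in knockdown and 1 higher, with SLC7A3, which carries arginine, at -1.07. Of these transporters 30.0% were called, against 33.0% of all genes tested.

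Heat shock chaperones were higher in knockdown where they passed, 7 of 19 with 0 lower and a median of 0.16. After quantile normalization 7 were higher and 2 lower, with a median of 0.09. CHORDC1, an HSP90 cochaperone, read 20571.4, 25735.6 and 25529.1 in knockdown against 11739.1, 14797.2 and 14602.4 in overexpression (0.80, SE 0.09). DNAJB1, a partner of HSP70, differed by 0.61. HSPE1 and HSPH1 (0.52 and 0.50) passed on both sides of wild type in opposite directions.

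Nuclear genes of mitochondrial respiration and genes of the proteasome that passed were, save 1 in each list, lower in knockdown by small amounts. Of 30 genes of the respiratory chain and ATP synthase, 14 were lower, 1 was higher and 15 did not pass, with a median of -0.15. NDUFA9 and NDUFV1, subunits of complex I, differed by -0.62 and -0.53. NDUFV1 read 11642.5, 12190.7 and 12102.7 in knockdown, below overexpression at 16244.9, 17940.1 and 17801.7 and wild type at 18735.3, 18987.1 and 17058.9. CYC1, cytochrome c1 of complex III, was the member higher in knockdown (0.53, adjusted p = 0.000398). Of 27 proteasome genes, 12 were lower, 1 was higher and 14 did not pass, with a median of -0.18, led by PSMC3 (-0.48), PSMD4 (-0.47) and PSMD6 (-0.43). PSMD8, the member called higher (0.18), lost its call in 14 of 17 other settings, with the replicate block among them (adjusted p = 0.0513). Without the replicate 1 term 9 respiratory and 5 proteasome genes were called lower, and the proteasome count was 7 without overexpression replicate 1 or with replicates 2 and 3 alone. Of 25 cytosolic ribosomal protein genes 1, RPL14, passed (0.18), and its call ended without the replicate 1 term.

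Selenoproteins were called often and in both directions, 8 of 17 lower in knockdown and 4 higher, with a median of -0.19. Beside SELENOP, the secreted glutathione peroxidase GPX3 was lower, at 2760.8, 3115 and 3081 against 5591, 4928.6 and 5407.3 in overexpression (-0.83, SE 0.08, adjusted p = 2.79e-05). GPX1 and SELENOW were higher (0.37 and 0.47). Genes of autophagy and the lysosome were also split, with 8 of 26 higher and 7 lower. HEXA, a lysosomal hexosaminidase, was lower (-0.99), as was ATP6V1H, a subunit of the proton pump (-0.72), and CTSB, a protease, was higher (0.44). The 8 became 5 without the replicate 1 term or with replicates 2 and 3 alone.

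Of 30 genes of hypoxia and glycolysis, 10 were higher in knockdown and 4 lower. TPI1, a glycolytic isomerase, read 63460.4, 64720 and 68102 in knockdown against 49721.9, 45003.4 and 46934 in overexpression (0.47, adjusted p = 0.000108), and BNIP3, a mitophagy receptor, differed by 0.51. The 10 became 6 without the replicate 1 term or knockdown replicate 1. The 4 became 1 without the term or knockdown replicate 1, and 2 without overexpression replicate 1 or 3 or knockdown replicate 3. Of 14 genes of the YAP pathway, 5 were higher and 1 lower, YAP1 itself at 9149.2, 11572.2 and 12446.7 in knockdown against 5915.5, 6936.3 and 7257.4 (0.72, SE 0.07, adjusted p = 2.08e-05). YAP1 and AMOT were higher while CCN1, a target of YAP, was lower. The 5 became 3 without the term or without knockdown replicate 1. Of 16 genes of TGF-beta and BMP feedback, 3 were higher and 3 lower, with BAMBI, a decoy receptor, at 0.65 and ID4, a BMP target, at -0.56. The 3 lower became 1 without overexpression replicate 2, where INHBE and FST lost their calls, and 5 were called higher with the replicate block.

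Histone genes and the enzymes that remove acetyl groups were called lower in knockdown more than higher. Over all genes tested the calls leaned the same way, with 20.1% lower and 12.9% higher. Of 15 histone genes 4 were lower in knockdown and none higher, among them the H2A.Z gene H2AZ2 (-0.48, adjusted p = 8.96e-05) and H2AC6 (-0.88). After quantile normalization 5 histone genes were lower and 2 higher. Of 18 histone deacetylases and sirtuins, 6 were lower and 1 higher. HDAC8 was lower (-0.41). The call of HDAC5 (-0.52) ended with replicates 2 and 3 alone, and that of HDAC1 (-0.19) without the replicate 1 term. The count of 6 was 3 without the term, 2 without overexpression replicate 1 or knockdown replicate 2, and 3 without overexpression replicate 2 or 3 or knockdown replicate 3. Of 25 apoptosis genes 5 were lower and 2 higher, BID at -0.50 and BAX at 0.35, and the 5 became 3 without the term or without overexpression replicate 1 or 3. Of 14 genes of the MYC network 2 were lower, MYC and its partner MAX (-0.35), and 1 higher, TXNIP (0.33), whose call ended with replicates 2 and 3 alone. Where a list had 0 calls by limma in a direction, members that pointed that way at an unadjusted p under 0.05 numbered 2 for the interferon list, 1 for HOX genes and 0 for TALE cofactors, mitotic and heat shock genes (all lower in knockdown), and 2 for histone genes (higher).

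**Figure D5:**
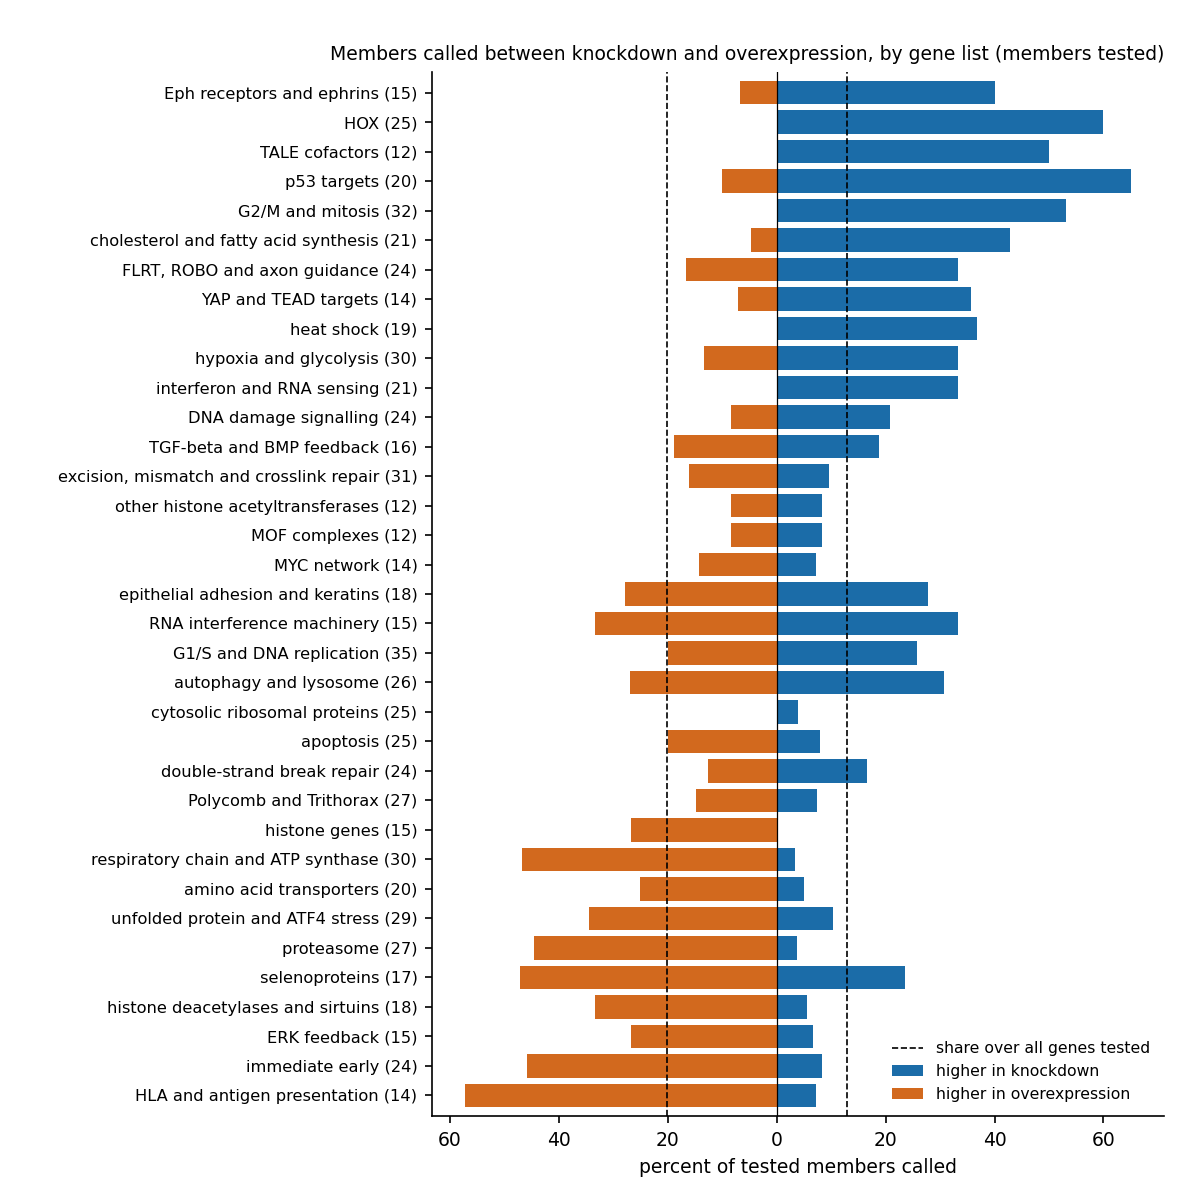
Percent of the tested members of 35 gene lists called higher in knockdown (right, blue) or higher in overexpression (left, orange), ordered by median log2 fold change, with dashed lines at the shares over all 12036 genes. HOX, p53 target and mitotic genes reach past the line on the right, and HLA, selenoprotein, respiratory chain, immediate early and proteasome genes past the line on the left.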

How the data were processed

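Total RNA was labelled with biotin and measured on 1 array per sample, per the labels. The authors deposited 1 linear intensity per probe set and array, and the submitters' processing notes name MAS5, with no version or settings. MAS5 works on one array at a time, and its dim signals vary more. The log2 of signal + 1 was analysed. Leaving aside 62 control probe sets, the 27307 at or above the median mean log2 signal (7.56) were tested with limma 3.58.1 in R 4.3.3 (lmFit, eBayes with a trend), in 1 fit over 9 arrays with terms for group and for replicate 1 (5 residual degrees of freedom), two-sided. Replicates 2 and 3 alone, a replicate block and other settings were alternatives. Deviations from group means correlated between knockdown and overexpression arrays of the same number (0.352, 0.237 and 0.106). Between replicates 2 and 3 of these groups, unlike numbers gave 0.057 and 0.090. Wild type replicate 3 correlated more with overexpression replicate 2 (0.284) than wild type replicate 2 did (0.160). These values do not settle whether replicates 2 and 3 were paired. The main fit did not pair them, and the replicate block treated the numbers as pairs. No arrays were identical. The fit was tested on simulated data.

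Probe sets with 1 gene symbol were named from the platform annotation (41091, of which 41037 matched a RefSeq gene of GRCh38.p14 by Entrez ID), and the brightest tested set stood for a gene. The genes named were KAT8, EGR1 and FLRT3, the 12 largest differences per direction and the 5 largest per class of which side moved, among called genes without overlap and with signal at or above the 75th percentile, then for each list the 4 members of smallest p with up to 2 against its median. Some were left out of the prose, and other members were chosen after their values were seen. The comparison, the genes and the gene lists were chosen with earlier results of these data known. Figures were drawn with matplotlib 3.10.9.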

Additional observations from a re-analysis of the deposited data

How the results depend on the processing

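Knockdown against overexpression called 7334 probe sets with the replicate block in place of the replicate 1 term, 6676 with only the 2 groups, 7474 with a pseudocount of 32, 6251 with no filter on low signal, 5443 with a filter at the 75th percentile and 7592 after quantile normalization. It called 3963 without the term and 4909 in replicates 2 and 3 alone. Leaving out 1 array gave 5496 to 7288. Calls higher in knockdown were 45.0% of all calls and 39.6% without the term. Knockdown against wild type called 4289 without the term and 5561 to 8113 with 1 array left out. Overexpression against wild type was the least stable: 130 without the term, 631 with no filter, 220 in replicates 2 and 3 alone and 335 to 1257 with 1 array left out. The cause was not tested. No named gene reversed under any of these settings. Of 177 named genes, 22 lost the call in the direct comparison without the term, 15 in replicates 2 and 3 alone, 8 with no filter and 2 with the replicate block (VIM and PSMD8). The block changed no other named call. Under the filter at the 75th percentile, which leaves dim genes untested, 7 immediate early genes were called lower and 3 interferon genes higher in knockdown, against 11 and 7. With 3 arrays per group, dim probe sets gave few calls, so a missed threshold there does not show that signals were alike.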
